A study of Mus musculus with 2 samples.

Results

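RNA-seq of GFP-positive cells from the embryonic mouse pancreas, collected by sorting, gave the transcript levels of genes for TGF-beta, BMP and activin signalling. The genes were chosen by symbol: the numbered Bmp and Gdf genes, the BMP, TGF-beta and activin receptors, the Smads, the TGF-beta ligands, the inhibin and activin subunits and the latent TGF-beta binding proteins, with Nog, Chrd, Grem1, Fst, Bambi, Smurf1 and Smurf2. They come to 61 of the 23284 gene symbols in the files. The symbol rule also took Bmp1, a metalloproteinase, and Bmp2k, a kinase, which are neither ligands nor receptors. Both libraries belong to the only group: NGN3-EGFP embryos of a mixed strain with C57BL6 at e15.5, whose pancreata were taken whole and dissociated. NGN3 is the protein of Neurog3, the transcription factor that starts endocrine differentiation. The labels do not say how the reporter was made, how many embryos went into a library, or whether separate litters were used. Their spread may therefore be technical.

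Replicates 1 and 2 held 12495143 and 12043734 counted reads. All 8 endocrine markers examined, Neurog3 among them, were at 152 CPM (a gene's reads scaled to a common library size) or more in each library, and their sums were 9444 CPM in replicate 1 against 9654 CPM in replicate 2. Markers of other cells were also present, with summed levels of 485 and 473 CPM for 5 duct genes and 1981 and 1464 CPM for 6 acinar genes. The 14 mesenchymal markers summed to 474 CPM in replicate 1 against 155 CPM in replicate 2, where 11 and 9 of them reached 1 CPM, and Nkx2-5 had no read. Barx1, Acta2 and Tagln of that list were higher in replicate 2, the others with reads in replicate 1. The 9 endothelial markers summed to 29.3 and 14.0 CPM and the 7 immune markers to 56.7 and 11.7 CPM. The 6 Schwann and enteric neural markers summed to 235 and 108 CPM, mostly from Ret (226 and 105 CPM). The 5 erythroid markers summed to 0.241 and 2.81 CPM. In such bulk samples fewer cells of a type and less RNA per cell cannot be told apart.

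Ligands of the TGF-beta superfamily are secreted dimers that bring type II and type I receptor kinases together at the cell surface. Type I receptors of the TGF-beta and activin branch phosphorylate Smad2 and Smad3, and those of the BMP branch phosphorylate Smad1, Smad5 and Smad9. The phosphorylated receptor Smads bind Smad4 and act on genes in the nucleus, while Smad6, Smad7 and the Smurf ubiquitin ligases damp the signal. In the embryonic pancreas activin, TGF-beta, BMP and Gdf11 signals are known to influence how many progenitors take the endocrine route.

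In these cells receptor and Smad transcripts far outweighed ligand transcripts. Promoter sequence is shown for the type I and type II receptor with the highest levels per kb of exon, Bmpr1a and Acvr2a. It is also shown for Bmp10 and Gdf2, a pair of ligands from the 13 genes without a read. Acvr2a was only 11th per kb among the genes at 1 CPM in each library, so the windows do not mark the ends of the range. These 4 were picked after their levels were known. Sequences run 5′ to 3′ on the gene's strand from 250 bases before to 50 bases after the start and come from RefSeq (GRCm38.p6). Capitals mark each CG, which reads the same on both strands.
Bmpr1a, chr14:34502497-34502796, minus strand: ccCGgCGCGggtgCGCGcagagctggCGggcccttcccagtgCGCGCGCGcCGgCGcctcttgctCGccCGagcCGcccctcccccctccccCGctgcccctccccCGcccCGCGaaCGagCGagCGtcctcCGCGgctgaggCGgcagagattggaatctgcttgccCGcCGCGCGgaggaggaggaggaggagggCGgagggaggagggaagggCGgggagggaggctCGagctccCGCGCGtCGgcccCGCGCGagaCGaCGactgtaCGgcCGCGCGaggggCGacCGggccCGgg
Acvr2a, chr2:48813859-48814158, plus strand: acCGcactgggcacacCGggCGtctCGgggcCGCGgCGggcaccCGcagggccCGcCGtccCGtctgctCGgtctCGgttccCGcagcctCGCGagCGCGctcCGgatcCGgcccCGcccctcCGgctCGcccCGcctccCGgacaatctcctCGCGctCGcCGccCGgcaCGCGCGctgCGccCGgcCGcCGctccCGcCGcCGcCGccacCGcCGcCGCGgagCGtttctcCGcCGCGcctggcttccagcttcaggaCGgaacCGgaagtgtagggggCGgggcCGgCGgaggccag
Bmp10, chr6:87428744-87429043, plus strand: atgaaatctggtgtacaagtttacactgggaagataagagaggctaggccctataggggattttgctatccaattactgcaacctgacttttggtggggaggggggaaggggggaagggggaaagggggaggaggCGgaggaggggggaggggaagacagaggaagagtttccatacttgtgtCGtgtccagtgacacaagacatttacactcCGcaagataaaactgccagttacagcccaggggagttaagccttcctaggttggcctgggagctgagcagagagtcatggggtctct
Gdf2, chr14:33940789-33941088, plus strand: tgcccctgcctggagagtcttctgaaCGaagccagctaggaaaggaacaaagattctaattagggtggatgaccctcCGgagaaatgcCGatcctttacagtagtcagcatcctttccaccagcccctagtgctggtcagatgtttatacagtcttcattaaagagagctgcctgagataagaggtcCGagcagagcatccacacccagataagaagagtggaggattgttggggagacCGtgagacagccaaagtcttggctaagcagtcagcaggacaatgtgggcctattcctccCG
The Bmpr1a window held 48 CG and the Acvr2a window 54, counts that 1.19% and 0.363% of 27018 RefSeq promoters reached. Bmp10 held 3 and Gdf2 held 6, which 76.2% and 56.4% of promoters reached. Such counts describe the windows only, and RefSeq windows were matched for 44 of the 61 genes, too few for a comparison over the whole set.

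Of the 61 genes, 29 reached 1 CPM in each library, or 47.5%, against 45.7% of all symbols, so this share is near the background. Replicate 1 held 36 of them at 1 CPM (50.3% of all symbols did so) and replicate 2 held 31 (51.6% of all). At 10 CPM in each library there were 19, or 31.1%, against 32.4% of all symbols. Another 9 reached 1 CPM in a single library, 10 had reads but stayed under 1 CPM in each, and 13 had no read, or 21.3%, against 34.9% of all symbols. By role the split was uneven. Of 17 receptors, receptor Smads and Smad4, 14 reached 1 CPM in each library, whereas 6 of 28 ligands did. Per kb of exon, the scale used for every comparison between genes, the receptor and Smad transcripts summed to 234 CPM per kb in replicate 1 and 249 CPM per kb in replicate 2. Ligands summed to 20.4 and 29.9 CPM per kb, so the first set was 11.5-fold and 8.32-fold higher. The smallest p of an exact permutation test over 2 libraries is 0.5, so orders are given as values in each library.

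**Figure D1:**
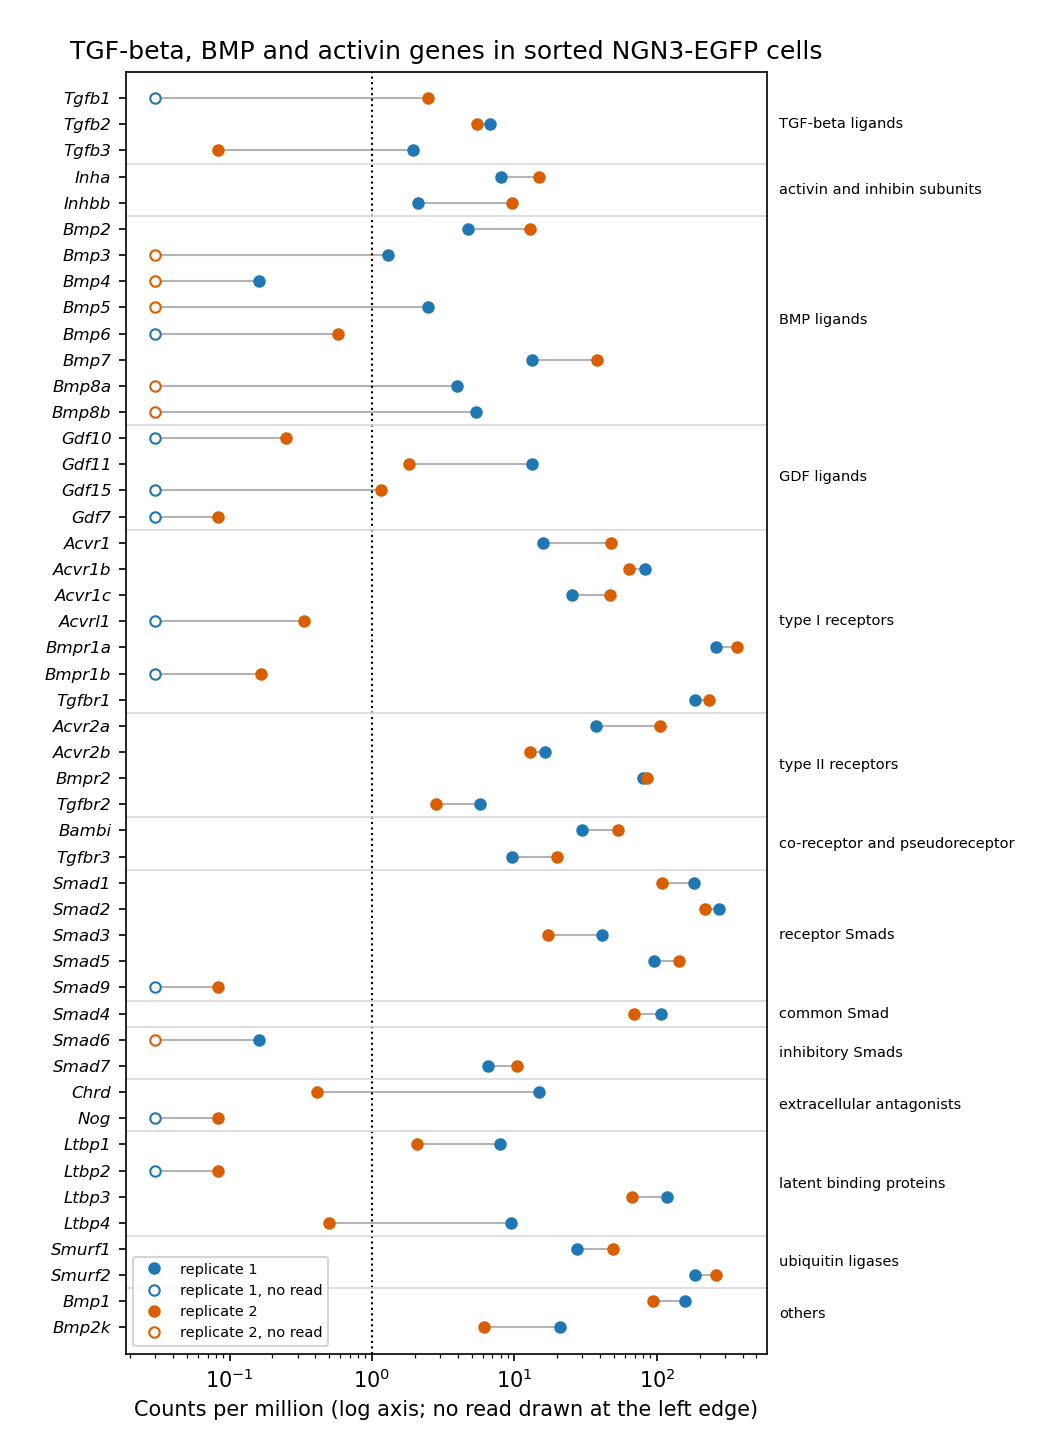
Level in CPM, on a log axis, of each gene with a read, grouped by role; blue points are replicate 1, orange points replicate 2, open points a library without a read, and the dotted line is 1 CPM. Receptors and Smads sit mostly at 10 CPM or more with their points close together, whereas many ligands lie near the dotted line with their points far apart.

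Among ligands Inha and Bmp7 had the highest levels per kb. Inha encodes the alpha subunit of the inhibins, which oppose activins, and was at 5.45 CPM per kb in replicate 1 and 10.1 CPM per kb in replicate 2. It made up 26.7% and 33.8% of the summed ligand level per kb. Bmp7, a BMP of many developing epithelia, was at 3.59 and 10.4 CPM per kb, so its order with Inha turned between the libraries, with ratios of Inha to Bmp7 of 1.52 and 0.974. With no length correction the ratio was 0.610 and 0.391, and Bmp7 led Inha in both. Bmp2 was at 1.33 and 3.63 CPM per kb, below Bmp7 by 2.69-fold and 2.86-fold, with Gdf11, Bmp8b and Bmp8a between them in replicate 1. Inha, Bmp7 and Bmp2 were all higher in replicate 2, Bmp7 by 2.88-fold (13.2 against 38.0 CPM).

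The activin beta subunits were scarce. Inhbb, which forms activin B or, with Inha, inhibin B, was at 2.09 CPM in replicate 1 against 9.59 CPM in replicate 2. Their exact Clopper-Pearson 95% intervals ran from 1.37 to 3.06 and from 7.92 to 11.5 and did not overlap, and the libraries differed 4.59-fold. Per kb Inha lay above Inhbb by 11.1-fold and 4.48-fold. Inhba, Inhbc and Inhbe, the other beta subunits, had no read. A count of 0 allows up to 3 reads, which come to 0.241 CPM (replicate 1) or 0.248 CPM (replicate 2) by counting error only.

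Of the TGF-beta ligands only Tgfb2 was close in both libraries, at 6.75 and 5.46 CPM. Its difference missed the 0.05 threshold (adjusted p = 0.242, exact binomial test, Benjamini-Hochberg adjustment), a test that compares these libraries and not conditions. Tgfb1 had no read in replicate 1 and was at 2.48 CPM in replicate 2, with an exact 95% interval from 1.67 to 3.54, and was thus at least 10.3-fold higher against the limit of 3 reads. Tgfb3 went the other way, with 24 reads in replicate 1 and 1 read in replicate 2. No library therefore held all of the TGF-beta ligands at 1 CPM.

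Gdf11, a ligand known to restrain the number of Neurog3-positive progenitors in the pancreas, was at 13.3 CPM in replicate 1 but 1.82 CPM in replicate 2. Exact 95% intervals of 11.3 to 15.4 and 1.14 to 2.75 kept them apart, and the level was 7.29-fold higher in replicate 1. Gdf15, a stress-responsive ligand, had no read in replicate 1 and 14 in replicate 2. Gdf10 had 3 reads and Gdf7 had 1, all in replicate 2. Gdf1, Gdf2, Gdf3, Gdf5, Gdf6 and Gdf9 had none. Gdf1 shares all of its exon bases with the gene for ceramide synthase 1, listed as Lass1, which also had no read, so its 0 is uncertain.

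The remaining BMP ligands were found in a single library or hardly at all. Bmp8b and Bmp8a were at 5.39 and 3.94 CPM in replicate 1 and had no read in replicate 2, at least 21.7-fold and 15.9-fold lower there. These are close paralogs. Stretches of 30 bases unique to the gene made up 87.9% of Bmp8b and 88.7% of Bmp8a, so some reads could have been split between them. Bmp5 was at 2.49 CPM and Bmp3 at 1.29 CPM in replicate 1, again with no read in replicate 2. Bmp5 is uncertain because 49.1% of its exon bases overlap a gene on the other strand and the strand setting of the counts is not given in the sources used here. Bmp4, a major BMP of pancreatic mesenchyme, had 2 reads in replicate 1 and none in replicate 2. Bmp6 had 7 reads, all in replicate 2, and Bmp10 and Bmp15 had none. The ligands with reads only in replicate 1 were Bmp3, Bmp4, Bmp5, Bmp8a and Bmp8b. Those with reads only in replicate 2 were Tgfb1, Bmp6, Gdf7, Gdf10 and Gdf15. Replicate 1 held the higher sums of mesenchymal (3.06-fold), immune (4.83-fold), Schwann and enteric neural (2.17-fold), endothelial (2.10-fold), acinar (1.35-fold) and duct (1.03-fold) markers. Not every marker went that way: Sox17, Esam, Pecam1, Tek and Tie1 of the endothelial list were higher in replicate 2. So were Ptprc, Csf1r and Tyrobp of the immune list and Sox10 of the Schwann and enteric neural list. The immune sums came mostly from Laptm5 (37.9 and 3.55 CPM) and Cd68 (18.4 and 7.69 CPM). Endocrine sums were close, at 9444 and 9654 CPM. Neurog3, Neurod1, Insm1 and Isl1 of that list were higher in replicate 1, and Pax4, Pax6, Chga and Chgb in replicate 2. The erythroid sum was higher in replicate 2, from Alas2 (0 and 2.81 CPM). The part of any of these cells was not tested.

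Type I receptors of both branches were present at similar summed levels. Bmpr1a, the main BMP type I receptor, was the highest of all 61 genes per kb in each library, at 43.0 CPM per kb in replicate 1 and 60.8 CPM per kb in replicate 2, or 314 ± 76.2 CPM (SD, n = 2). On this scale it stood at the percentiles 93.3 and 96.0 among the 22791 genes with an exon length. Bmp1 was almost level with Bmpr1a in replicate 1, at 42.9 CPM per kb. By CPM with no length correction Smad2 was higher than Bmpr1a in replicate 1, at 272 against 260 CPM. Tgfbr1, the TGF-beta type I receptor, was at 29.0 and 36.5 CPM per kb, or 210 ± 34.2 CPM (SD, n = 2). Bmpr1a lay above it by 1.48-fold and 1.66-fold, although the range of the libraries for Bmpr1a overlapped that of the next gene in the order, Smurf2. Acvr1b, which encodes the activin receptor ALK4, was at 18.7 and 14.4 CPM per kb, below Tgfbr1 by 1.55-fold and 2.53-fold. Acvr1, a further BMP type I receptor, was at 4.36 and 13.1 CPM per kb, and Acvr1c, the receptor ALK7 for activin B, Nodal and some GDFs, at 2.76 and 5.09 CPM per kb.

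The remaining type I receptors were close to absent. Bmpr1b had no read in replicate 1 and 2 reads in replicate 2, and Acvrl1, the ALK1 receptor of endothelial cells, had none and 4. The summed BMP type I receptors (Bmpr1a, Bmpr1b and Acvr1) stood to the summed TGF-beta and activin type I receptors (Tgfbr1, Acvr1b and Acvr1c) at 0.939 in replicate 1 and 1.32 in replicate 2. Neither branch was thus higher in both libraries.

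Per kb the type II receptors were led by Acvr2a, which activins and BMPs share. Acvr2a was at 6.63 CPM per kb in replicate 1 and 18.7 CPM per kb in replicate 2, or 71.9 ± 48.4 CPM (SD, n = 2). The gene Orc4 on the other strand overlaps 7.8% of its exon bases. Bmpr2, which binds mainly BMPs, was at 6.19 and 6.66 CPM per kb, and Acvr2b at 4.61 and 3.61 CPM per kb. Per kb both libraries kept the order Acvr2a, Bmpr2, Acvr2b, but the lead of Acvr2a over Bmpr2 was 1.07-fold in the first and 2.80-fold in the other. By CPM with no length correction that ratio was 0.472 and 1.24, since Bmpr2 has the longer exons.

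Tgfbr2, the type II receptor that TGF-beta itself needs, had the lowest mean per kb of the 29 genes that reached 1 CPM in each library, although Inhbb was lower in replicate 1 and Ltbp1 in replicate 2. It was at 0.697 CPM per kb in replicate 1 and 0.343 CPM per kb in replicate 2, from 71 and 34 reads. Acvr2b lay above it by 6.62-fold and 10.5-fold, and the sum of Acvr2a, Acvr2b and Bmpr2 by 25.0-fold and 84.3-fold. Tgfbr1 and Tgfbr2, the partners of the TGF-beta receptor, were therefore far apart in these pools, whose levels do not show which cells held which transcript. Tgfbr3, the co-receptor betaglycan, was at 1.57 and 3.26 CPM per kb. Bambi, a pseudoreceptor without a kinase domain that dampens signalling, was at 5.85 and 10.5 CPM per kb, which was 0.136 and 0.173 of the level of Bmpr1a.

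**Figure D2:**
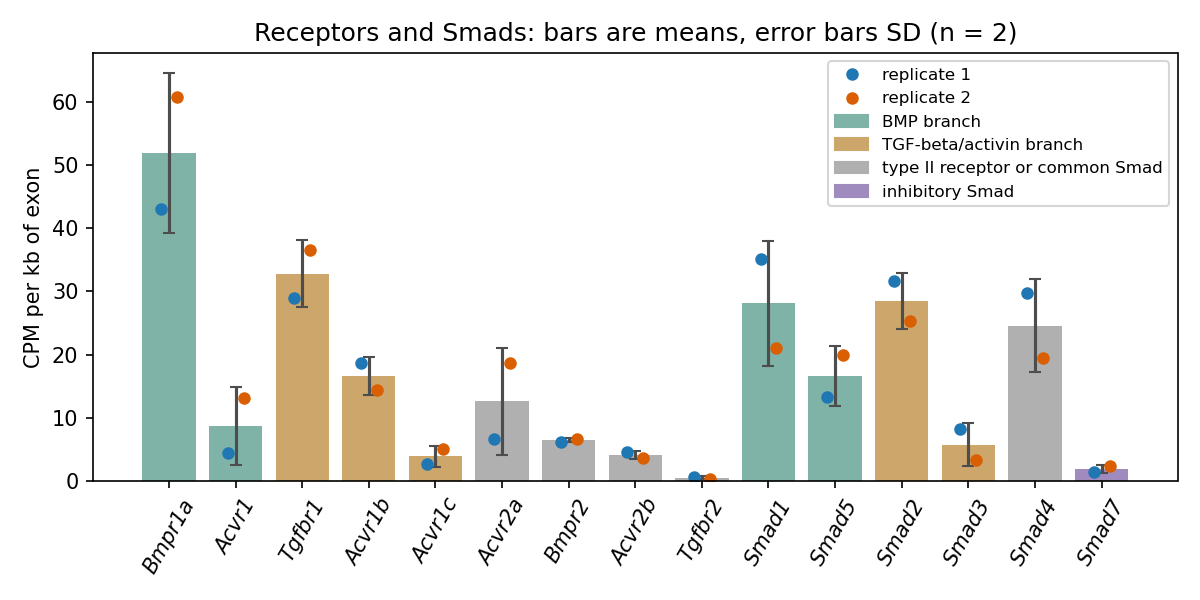
Level per kb of exon of 15 receptor and Smad genes; bars are means, error bars the SD over 2 libraries and points the libraries, with colours for the branch. Bmpr1a is the tallest bar, Tgfbr2 is barely above 0, and Smad1, Smad2 and Smad4 stand at similar heights with overlapping points.

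Receptor Smads of both branches were well represented. Smad2 was at 31.7 CPM per kb in replicate 1 and 25.3 CPM per kb in replicate 2, or 245 ± 38.4 CPM (SD, n = 2), and its partner Smad3 was lower, at 8.15 and 3.38 CPM per kb. The ratio of Smad2 to Smad3 was 3.89 and 7.50. In the BMP branch Smad1 was at 35.1 and 21.1 CPM per kb and Smad5 at 13.3 and 20.0 CPM per kb, so that the ratio of Smad1 to Smad5 was 2.65 in replicate 1 but 1.06 in replicate 2, and 1.91 but 0.762 with no length correction. Smad9 had no read in replicate 1 and 1 in replicate 2. Smad4, the common partner, was at 29.8 and 19.4 CPM per kb.

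The BMP branch summed to 1.22 and 1.43 of the TGF-beta and activin branch. That order rests on the length correction: with no correction the mean ratio was 0.980, and with the longest transcript of each gene as its length it was 1.59, against 1.32 with all exon bases. Which branch has more receptor Smad transcripts thus could not be settled here.

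Inhibitory Smads were scarce beside the receptor Smads. Smad7, which blocks both branches, was at 1.49 and 2.40 CPM per kb. Smad6, which acts mainly on the BMP branch, had 2 reads in replicate 1 and none in replicate 2. Their sum was 0.0175 of the summed receptor Smads in replicate 1 and 0.0343 in replicate 2. The ubiquitin ligase Smurf2, which marks receptors and Smads for degradation, was by contrast abundant, at 34.5 and 48.6 CPM per kb. Its relative Smurf1 was at 5.05 and 9.00 CPM per kb, lower by 6.82-fold and 5.40-fold.

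Of the 4 antagonists among the members, none reached 1 CPM in each library. Chrd (chordin), which binds BMPs outside the cell, was at 14.8 CPM in replicate 1 but 0.413 CPM in replicate 2, a 35.8-fold difference. Exact 95% intervals were 12.7 to 17.1 and 0.134 to 0.965, far from overlapping. It was high in the library with higher sums of mesenchymal, immune, neural and endothelial markers, and the part of those cells was not tested. Nog (noggin) had no read in replicate 1 and 1 in replicate 2. Fst (follistatin), which binds activins, and Grem1 (gremlin), which binds BMPs, had none.

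From a list of 18 further extracellular antagonists and binding proteins, 7 reached 1 CPM in each library, a share not far from the 45.7% of all symbols. Cer1 and Twsg1 among them were abundant, whereas the median of the list was 0.362 CPM in replicate 1 and 0.785 in replicate 2. Cer1 (Cerberus), a secreted antagonist of Nodal and BMPs, was at 147 CPM per kb in replicate 1 and 69.2 CPM per kb in replicate 2. This was 7.22-fold and 2.31-fold the sum of all 28 ligand members. With no length correction the mean ratio was 2.71, against 4.77 per kb. Twsg1 (twisted gastrulation), a BMP-binding protein that works with chordin, was at 98.7 and 93.2 CPM per kb, and it was above Cer1 in replicate 2 but not in replicate 1. By CPM with no length correction Twsg1 was above Cer1 in both, with ratios of 1.99 and 3.99. Bgn, a matrix proteoglycan, was at 20.6 and 8.71 CPM per kb. Dcn, another matrix proteoglycan and one of the mesenchymal markers, was at 27.8 CPM per kb in replicate 1 but 1.24 CPM per kb in replicate 2.

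**Figure D3:**
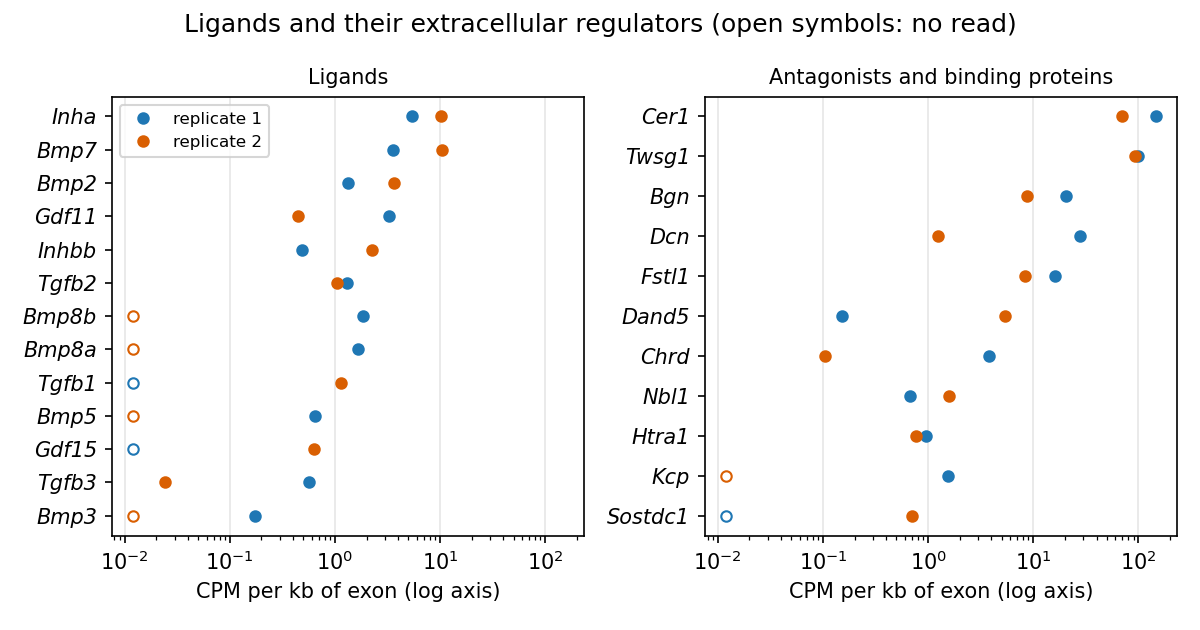
Level per kb of exon on a log axis of ligands (left) and of extracellular antagonists and binding proteins (right) with at least 10 reads; blue points are replicate 1, orange points replicate 2, and open points at the left edge a library without a read. Cer1 and Twsg1 lie at 69.2 CPM per kb or more in each library, above all ligands drawn.

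Ligand processing and storage genes varied. Bmp1, the metalloproteinase that cleaves chordin and procollagens, was at 42.9 CPM per kb in replicate 1 and 25.3 CPM per kb in replicate 2. Ltbp3, which holds latent TGF-beta in the matrix, was at 22.7 and 13.0 CPM per kb, above Ltbp1 by 19.6-fold and 43.3-fold. Ltbp1 was at 1.15 and 0.299 CPM per kb. Ltbp4 was at 9.41 CPM in replicate 1 but 0.496 CPM in replicate 2, a 19.0-fold difference, and Ltbp2 had a single read. The exact 95% intervals of Ltbp4 were 7.78 to 11.3 and 0.182 to 1.08. All 3 Ltbp genes tested were higher in replicate 1, a direction that 41.7% of all 13416 genes tested took at the 0.05 threshold. These 3 genes are too few to set against that share. The sum of the mesenchymal markers was also higher in replicate 1, and the part of mesenchymal cells was not tested. Furin, a protease that cleaves the precursors of these ligands, was at 7.32 and 11.6 CPM per kb, and 6 of 12 listed processing and latency genes reached 1 CPM in each library, near the background of 45.7%. Itgav, an integrin subunit that helps release latent TGF-beta, was at 5.53 and 12.2 CPM per kb, and Pcsk6, a relative of furin, at 6.84 and 0.676 CPM per kb. Bmp2k was at 2.46 and 0.721 CPM per kb, with 14.0% of its exon bases overlapping Paqr3 on the other strand.

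Intracellular partners were the most complete class, with 23 of 26 listed genes at 1 CPM in each library, against 45.7% of all symbols. Fkbp1a, which encodes the FKBP12 protein that keeps type I receptors inactive, was at 340 CPM per kb in replicate 1 and 451 CPM per kb in replicate 2. Tab2, an adaptor of the kinase TAK1, was at 84.6 and 90.6 CPM per kb, and Strap, which binds TGF-beta receptors and Smad7, at 75.0 and 65.7 CPM per kb. Per kb these exceeded every receptor and Smad among the members. With no length correction Strap, at 199 and 174 CPM, was below Bmpr1a (260 and 368 CPM) and Smad2 (272 and 218 CPM). Of the other receptors and co-receptors 5 of 8 were found at 1 CPM in each library, against the same 45.7%. Neo1 (neogenin), which also binds BMP co-receptors, was at 83.9 and 66.6 CPM per kb, Rgma, such a co-receptor, at 1.22 and 7.82 CPM per kb, and Lrp1 at 1.97 and 2.41 CPM per kb.

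Genes known to respond to these pathways gave a mixed picture. Of 18 listed targets 9 reached 1 CPM in each library, near the background of 45.7%. Cdkn1a (p21), a cell cycle inhibitor with many other inputs, was at 244 and 261 CPM per kb and Vegfa, also a target of hypoxia, at 71.0 and 123 CPM per kb. Cyr61 was at 45.4 and 9.42 CPM per kb. The Id genes, classic BMP targets, were lower: Id1 was at 9.36 and 7.70 CPM per kb, Id2 at 17.2 and 7.29 CPM per kb and Id4 at 3.57 and 3.65 CPM per kb. Id3 was at 11.0 CPM per kb in replicate 1 and 0.259 CPM per kb in replicate 2. Msx1 and Msx2, further BMP targets, had no read. Of the 7 further ligands and cofactors, Mstn alone reached 1 CPM in each library, at 0.386 and 0.825 CPM per kb, Lefty1 was at 1.54 and 0.102 CPM per kb, and Nodal, Lefty2, Tdgf1 and Cfc1 had no read.

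Differences between the libraries were common, as they were across the transcriptome. With the exact binomial test and Benjamini-Hochberg adjustment at 0.05, 36 of the 38 genes with at least 10 reads differed, 17 higher in replicate 2 and 19 higher in replicate 1. The share of all 13416 genes tested that differed was 85.8%, with 44.1% higher in replicate 2 and 41.7% higher in replicate 1. Tgfb2 and Bmpr2, the latter at 79.9 and 85.9 CPM, were the genes that did not pass. The median log2 ratio of replicate 2 over replicate 1 was -0.31 over the 38 genes and 0.04 over all genes tested. It was 0.10 over the 31 genes with at least 100 reads, so the median gave no steady direction.

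The size of the difference followed the level. Of the members, 20 of 38 differed over 2-fold, against 48.2% of all genes tested. Of them 11 of 38 differed over 4-fold, or 28.9%, against 28.7% of all genes by the same test. Of these 11, 9 were ligands and the others were Chrd and Ltbp4, while 0 of the 14 tested receptors, receptor Smads and Smad4 differed over 4-fold. The 7 members from 100 to 1000 CPM (Bmpr1a, Smad2, Smurf2, Tgfbr1, Smad1, Bmp1 and Smad5) had log2 levels with an SD of 0.39 between libraries, and 0 differed over 2-fold, against an SD of 0.47 and 12.2% of all genes at that level. The 15 members from 10 to 100 CPM had an SD of 0.75, against 1.26 for all genes at that level. Of these members 40.0% differed over 2-fold, against 42.9% of all genes there. The 14 members from 1 to 10 CPM had an SD of 2.28, against 2.25 for all genes there. The contrast between ligands and receptors in spread was not tested apart from their levels.

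**Figure D4:**
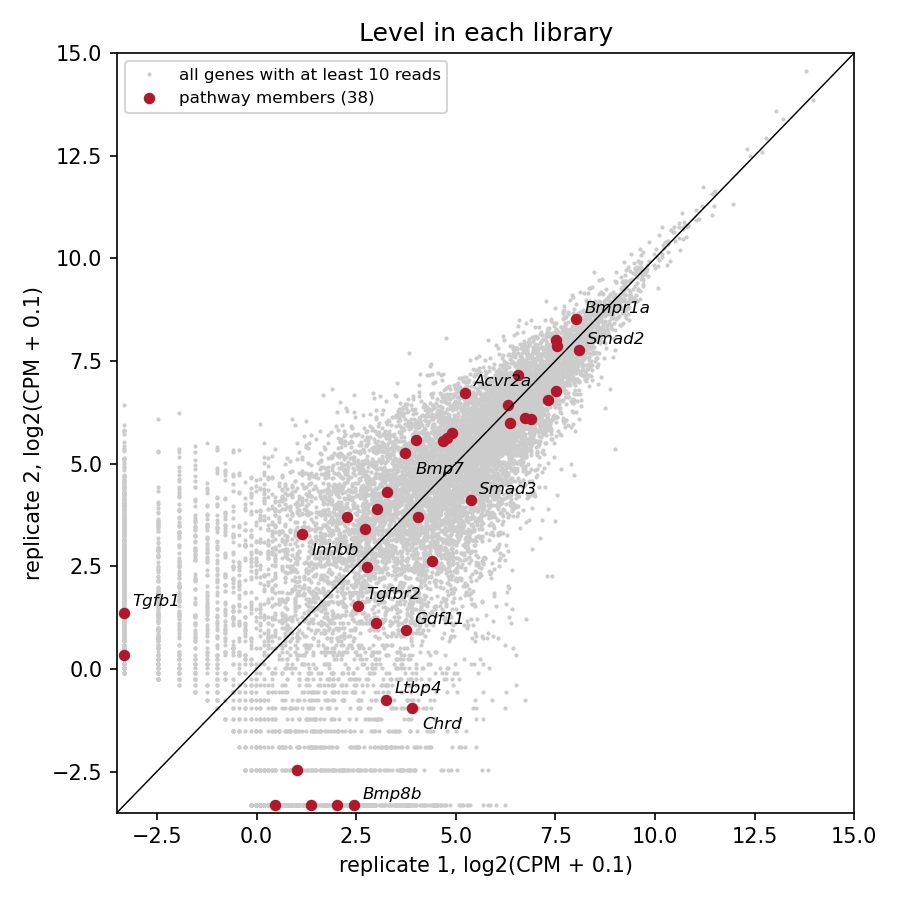
Level in replicate 2 against replicate 1 as log2(CPM + 0.1) for genes with 10 or more reads in all; grey points are all genes, red points the 38 members tested, and the line marks equal levels. Bmpr1a and Smad2 lie near the line, whereas Chrd, Ltbp4 and Bmp8b lie far below it and Tgfb1 sits at the left edge with no read in replicate 1.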

How the data were processed

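RNA-seq was done on GFP-positive cells from NGN3-EGFP pancreas at e15.5, with 2 libraries in 1 group, mapped by their titles. Per the submitters' processing notes, FastQC, cutadapt, TopHat2 2.0.4, Cufflinks 2.0.2, DESeq and the build mm9 were used, with no roles stated. The authors deposited raw read counts per gene symbol. The sources used here do not give the counter, annotation, strand setting or handling of multi-mapped reads.

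Counts were scaled to CPM with TMM factors (edgeR 4.0.16, R 4.3.3), 0.9956 and 1.0044. Levels per kb used the union of exons of the GENCODE M21 basic set on GRCm38, matched for 22791 symbols (97.9%) and all 61 genes; the build differs from mm9, so no gene coordinates are given. Log2 ratios used a prior count of 2. Reads were compared between libraries by an exact binomial test (two-sided) with each library's TMM-scaled share as expectation, Benjamini-Hochberg adjusted over all genes with at least 10 reads. It was tried on simulated Poisson counts only. Apart from the changes put in, those hold no spread between libraries beyond counting error, so the trial does not cover the spread seen here. No test of conditions was possible with 1 group. A fold over 4 includes genes at 0 in a library. Intervals and the limit of a 0 cover counting error alone, because PCR copies carry no molecular identifier.

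The members and lists were chosen with earlier results of these data known. Named with values are members with a mean of at least 10 CPM, members differing over 4-fold with at least 50 reads, members without reads, and the 3 highest of each further class; other genes were named after their values were seen. Alternatives were plain totals, DESeq2 1.42.0 size factors, Rn45s left out, other limits, filters and prior counts, other lengths and leaving out each library.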

Additional observations from a re-analysis of the deposited data

How the results depend on the processing

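No paired analysis was possible because there is 1 group and so no pair of groups. The number of members at 1 CPM in each library was 29 under the other scalings and at 0.5 CPM, 24 at 5 CPM, and 31 to 36 when a replicate was left out. Of the 38 genes tested, 36 differed between the libraries under every scaling and 20 when a difference over 2-fold was also required. The median log2 ratio was 0.42 with no filter on reads and 0.10 with at least 100 reads, against -0.31; the cause was not tested. The BMP to TGF-beta/activin ratio was 0.980 for receptor Smads with no length correction and 1.59 with the longest transcript; for type I receptors leaving out each replicate gave 0.939 to 1.32. With no length correction Inha gave 14.9% of ligand reads and Bmp7 was above it. With no length correction the ratio of receptors and Smads to ligands was 19.9 and that of Cer1 to ligands 2.71. Both ratios were added after seeing the data, as were the scalings of single genes, of which no log2 ratio changed sign. Levels under 10 CPM rest on few reads, and their spread between libraries limits them more than counting error.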
